A study of Populus ussuriensis with 18 samples.

Results

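Cytochromes P450 are membrane-bound heme enzymes that insert 1 oxygen atom of O2 into a substrate, with electrons from NADPH-cytochrome P450 reductase. In plants they form one of the largest enzyme families and serve hormone synthesis and breakdown, the making of defence compounds and the detoxification of foreign molecules. The 4 genes described here, of 30485 genes in the deposited values, are 2 genes described as CYP705A5 (Potri.001G270900.v3.0 and Potri.009G065000.v3.0), the gene CYP87A2 (Potri.009G064900.v3.0) and the gene CYP81D8 (Potri.005G143800.v3.0). CYP87A2 has the identifier just before that of the CYP705A5 gene on chromosome 9. In Arabidopsis, CYP705A5 acts in roots in the metabolism of the triterpene thalianol, and CYP81D8 is known as a gene induced by foreign chemicals and reactive oxygen. Other members of the CYP87 family oxidise triterpenes. What the enzymes do in poplar is not known from the sources used here.

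The 4 genes were chosen by their identifiers with the FPKM of the same 18 libraries known, so their levels and their differences from the control are given as a description, without a test. The names come from the study's own tables, since the deposited values list identifiers only.

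The roots were whole roots of in vitro plantlets of Populus ussuriensis. The 5 low nitrogen (LN) groups were taken from liquid medium with 0.05 mM nitrate and 0.025 mM ammonium, after 12, 24, 48, 96 or 336 h on it, and the control group at 0 h came from medium with 10 mM nitrate and 5 mM ammonium. Each group holds 3 libraries, and all plantlets were kept under 16 h of light and 8 h of darkness. Plantlets left on control medium for the same times were not analysed here, so LN supply, the transfer itself and time since transfer cannot be told apart. The study kept plantlets on medium with agar before the transfer, and the form of the control medium at 0 h is not stated. A change from agar to liquid medium therefore cannot be told apart from LN supply either. The 12 h group also differs from the control in time of day. Since RNA came from whole roots, fewer cells that hold a transcript and less transcript per cell cannot be told apart.

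FPKM is the number of fragments of a gene, divided by gene length and library total. All 30485 genes gave whole numbers of fragments within 0.001, with 15945075 to 18193661 fragments per library. For the 4 genes, with lengths of 1588 to 1973 bp, 3 fragments correspond to 0.0874 to 0.109 FPKM at the median total. Replicate 3 at 48 h stood apart, with r of log2(FPKM + 1) across genes of 0.939 with either of its replicates, against 0.993 to 0.996 for all other pairs within a group. Every pair of replicates differed by more than sampling noise. Values and calls that rest on the 48 h libraries are therefore also given without replicate 3. Which of the 48 h libraries departs from the usual course of the roots was not tested. Of the root markers, SHORT-ROOT and the 3 SCARECROW genes were above 0 in every library. The 3 markers of green cells, CP29.2 (2 genes) and the Photosystem II 10 kDa polypeptide, were also above 0 in every library. The study's tables, from which both marker lists come, hold genes it called on these same samples.

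CYP87A2 and CYP81D8 were among the genes for which the study designed RT-qPCR primers. The 4 primers, of 20 bases each, are shown because they mark the transcripts to which these names belong, and each is written 5′ to 3′ in lower case. The RT-qPCR values were not analysed here.
CYP87A2 forward: ccctcctggttctatgggtc
CYP87A2 reverse: cgtttcctgacgaatgggtg
CYP81D8 forward: ccaagcccaccagctattcc
CYP81D8 reverse: tacaaccaccacaggtcgag

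All 4 genes had higher values in every LN library than in every control library at all 5 time points, but they followed different courses. The 2 CYP705A5 genes stayed above 15 FPKM from 12 h to 336 h. CYP87A2 and CYP81D8, near the detection limit in the control, had their highest replicated levels at 12 h and far lower levels at 96 h. Among the genes tested, every LN library exceeded every control library in 46.1% after 12 h, 37.1% after 24 h, 22.9% after 48 h, 45.1% after 96 h and 51.2% after 336 h. The absence of overlap on its own was thus common. Because the genes were chosen on these values, nothing is read from it.

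**Figure D1:**
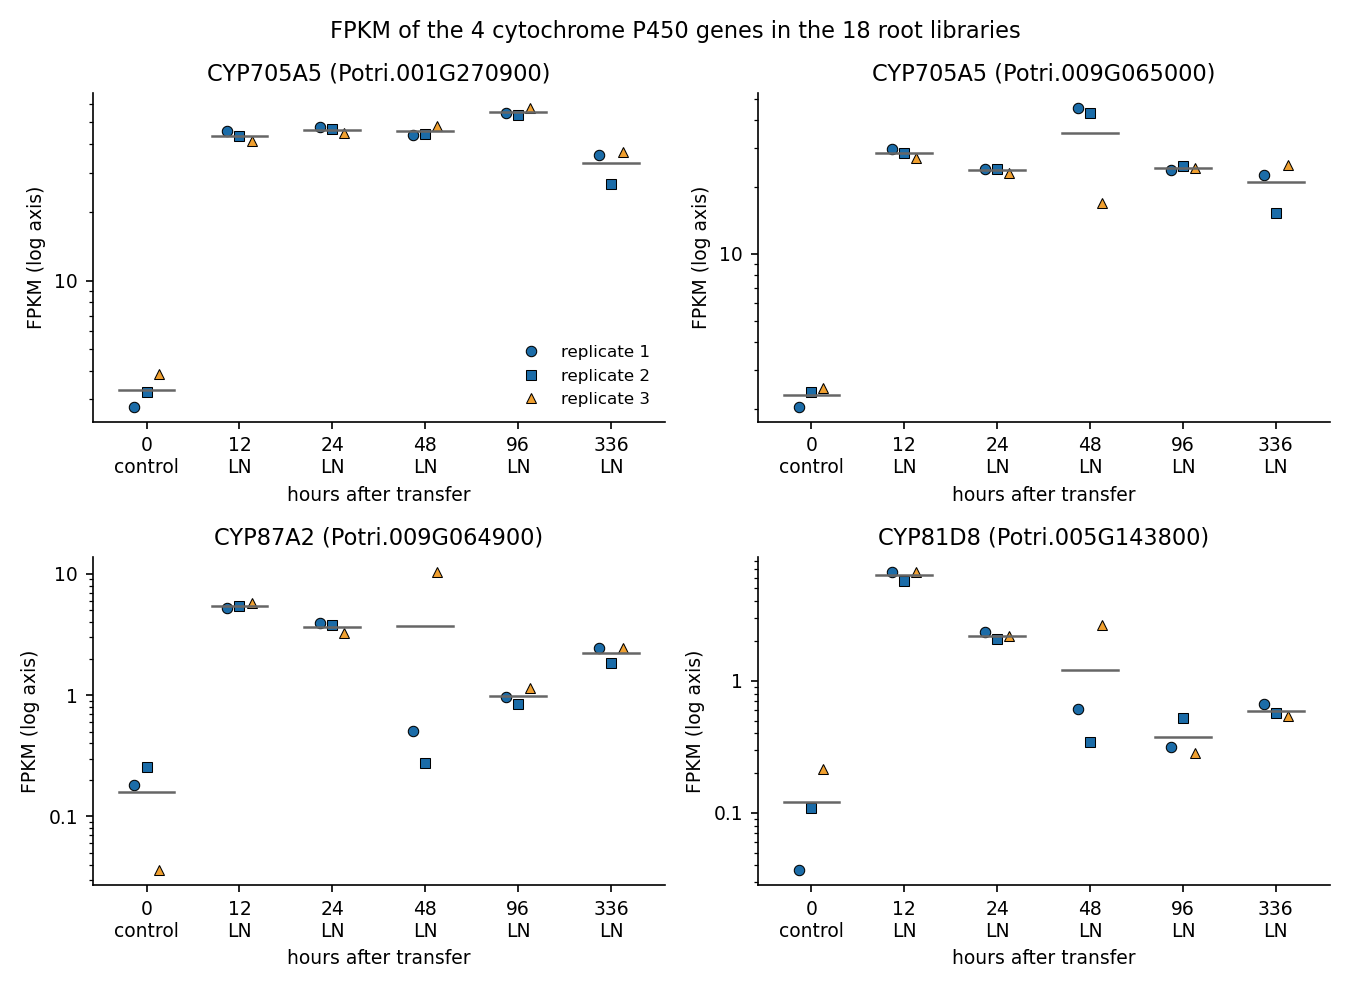
FPKM of the 4 genes (log axis) in each of the 18 libraries by hours after transfer, with 1 marker per replicate and a line at the mean of each group of 3. Both CYP705A5 genes stayed at 15.3 FPKM or more in all LN libraries, while CYP87A2 and CYP81D8 were highest at 12 h among the groups whose replicates lay close together; replicate 3 at 48 h stands apart in 3 of the 4 panels.

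The CYP705A5 gene on chromosome 1, Potri.001G270900, had 2.76, 3.20 and 3.88 FPKM in the control libraries. It had 45.8, 43.6 and 41.6 FPKM at 12 h, 47.9, 46.6 and 44.8 FPKM at 24 h, and 44.1, 44.6 and 48.3 FPKM at 48 h. It had 54.9, 53.9 and 57.6 FPKM at 96 h and 35.7, 26.8 and 36.9 FPKM at 336 h. The level was thus almost flat over the first 48 h, highest at 96 h and lowest among the LN groups at 336 h. In the order of the group means, the ranges of 12 h, 48 h and 24 h overlapped, whereas 96 h lay above and 336 h below these 3 without overlap. The mean under LN was 13.3 times that of the control at 12 h, 14.1 times after 24 h, 13.9 times after 48 h (13.5 times without replicate 3), 16.9 times after 96 h and 10.1 times after 336 h. On the scale of log2(FPKM + 1) the difference was 3.39 ± 0.12 at 12 h and 3.73 ± 0.11 at 96 h (SE from 3 libraries against 3), and 2.99 ± 0.18 at 336 h. At 48 h this gene ranked 36th of 22779 tested genes by log2 fold change, and at 336 h it ranked 80th of 23320. Because the gene was chosen with these values known, nothing is read from the ranks.

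The CYP705A5 gene on chromosome 9, Potri.009G065000, had 2.04, 2.38 and 2.49 FPKM in the control libraries. It had 29.9, 28.4 and 27.0 FPKM at 12 h and 24.2, 24.2 and 23.2 FPKM at 24 h. The 48 h libraries had 45.3 and 43.3 FPKM in replicates 1 and 2 but 16.9 FPKM in replicate 3. At 96 h it had 24.0, 25.0 and 24.4 FPKM, and at 336 h 22.8, 15.3 and 25.2 FPKM. Apart from 48 h, the means of the LN groups lay between 21.1 and 28.4 FPKM. The ranges of 336 h, 24 h and 96 h overlapped as neighbours in the order of the means, and 12 h lay above 96 h without overlap. The mean under LN was 12.4 times that of the control at 12 h, 10.4 times at 24 h, 10.6 times at 96 h and 9.17 times at 336 h. At 48 h it was 15.3 times with all 3 libraries and 19.3 times with replicates 1 and 2, against 7.35 times in replicate 3 alone. On the log2(FPKM + 1) scale the difference was 3.16 ± 0.07 at 12 h and 2.72 ± 0.22 at 336 h (SE).

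CYP87A2, Potri.009G064900, had 0.183, 0.255 and 0.0359 FPKM in the control libraries, which is 13 fragments in all. At 12 h it had 5.21, 5.40 and 5.76 FPKM, or 445 fragments, and at 24 h 3.94, 3.75 and 3.27 FPKM. At 48 h it had 0.501 and 0.276 FPKM in replicates 1 and 2 and 10.4 FPKM in replicate 3, its highest value in any library. It had 0.973, 0.837 and 1.14 FPKM at 96 h and 2.46, 1.83 and 2.44 FPKM at 336 h. Without 48 h, the groups ran in the order control, 96 h, 336 h, 24 h and 12 h, with no overlap between neighbours in that order. The level thus fell to 18.04% of the 12 h mean at 96 h and was 41.1% of it at 336 h. The mean at 12 h was 34.5 times that of the control (95% counting interval 20.1 to 65.7, exact), and at 96 h it was 6.23 times (3.46 to 12.2). These intervals cover counting error only, and the few control fragments set their width. On the log2(FPKM + 1) scale, which understates changes of low genes, the differences were 2.48 ± 0.09 at 12 h, 2.01 ± 0.10 after 24 h, 0.78 ± 0.10 after 96 h and 1.48 ± 0.13 after 336 h (SE). At 48 h the difference was 1.27 ± 1.02, with 0.26 without replicate 3 and 3.30 in replicate 3 alone.

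CYP81D8, Potri.005G143800, had 0.0367, 0.109 and 0.216 FPKM in the control libraries, or 10 fragments in all. It had 6.59, 5.71 and 6.65 FPKM at 12 h and 2.33, 2.07 and 2.17 FPKM at 24 h. The 48 h libraries had 0.610 and 0.346 FPKM in replicates 1 and 2 and 2.63 FPKM in replicate 3. It had 0.313, 0.524 and 0.286 FPKM at 96 h and 0.670, 0.572 and 0.538 FPKM at 336 h. Its highest level was thus at 12 h, and the 24 h mean was 34.7% of the 12 h mean, the 96 h mean 5.93% and the 336 h mean 9.39%. At 96 h the lowest library, with 8 fragments, lay above the highest control library, with 6 fragments, so the 2 groups were apart only narrowly. The mean was 52.4 times that of the control at 12 h (95% counting interval 28.1 to 109, exact), 18.2 times at 24 h (9.58 to 38.3) and 3.11 times at 96 h (1.48 to 7.06). On the log2(FPKM + 1) scale the difference was 2.71 ± 0.09 at 12 h and 1.51 ± 0.07 at 24 h, against 0.29 ± 0.10 at 96 h and 0.51 ± 0.08 at 336 h (SE). At 48 h it was 0.83 ± 0.45, with 0.40 without replicate 3 and 1.70 in replicate 3 alone.

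At 12 h the summed level of the 4 root markers was 7.34 to 9.04 FPKM, against 18.05 to 18.97 FPKM in the control. The summed level of the 3 green markers at 12 h was 132 to 143 FPKM, against 330 to 348 FPKM in the control. The root markers summed to 14.2 to 14.7 FPKM after 24 h, 12.5 to 15.1 FPKM after 48 h and 20.6 to 22.2 FPKM after 96 h, and the green markers to 236 to 239 FPKM after 24 h, 132 to 214 FPKM after 48 h and 315 to 339 FPKM after 96 h. The root markers were thus above the control range and the green markers overlapped it at 96 h. At 336 h the root markers summed to 27.0 to 29.4 FPKM and the green markers to 67.6 to 90.8 FPKM. The part of these shifts in the levels of the 4 genes was not tested.

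For tests across genes, limma was run on log2(FPKM + 1). A gene entered a comparison where 3 or more of its 6 libraries reached 1 FPKM. It was called where its log2 fold change was 1 or more in size and its adjusted p was under 0.05. Such calls were made for 8.83% of the tested genes after 12 h, 5.69% after 24 h, 4.98% after 48 h, 10.0% after 96 h and 12.3% after 336 h, and for 20.7% at 1 or more time points. Both CYP705A5 genes passed the filter at all 5 time points, CYP87A2 at 3 (12, 24 and 336 h) and CYP81D8 at 2 (12 and 24 h). CYP87A2 and CYP81D8 passed only through their LN libraries. The median log2 fold change of all tested genes was 0.15 after 12 h, 0.08 after 24 h, 0.04 after 48 h, 0.13 after 96 h and 0.21 after 336 h. The median over the 5 time points was 3.45 for Potri.001G270900, 2.95 for Potri.009G065000, 1.48 for CYP87A2 and 0.83 for CYP81D8. Without replicate 3 at 48 h the median of CYP81D8 was 0.51. With a pseudocount of 0.1 in place of 1 these medians were 3.77, 3.36, 3.28 and 2.19 in the same order of genes.

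The 2 CYP705A5 genes were compared with each other in every library, since FPKM is a value per length. The FPKM of Potri.009G065000 was 0.738, 0.741 and 0.641 times that of Potri.001G270900 in the control libraries and 0.652, 0.652 and 0.650 times at 12 h. It was 0.505, 0.520 and 0.517 times at 24 h, 0.437, 0.464 and 0.423 times at 96 h and 0.637, 0.571 and 0.683 times at 336 h. The chromosome 1 gene was therefore the more abundant of the pair in these 15 libraries, and by most at 96 h. At 48 h the ratio was 1.028 and 0.971 in replicates 1 and 2 and 0.350 in replicate 3, so that replicates 1 and 2 held the highest ratios and replicate 3 the lowest ratio of all libraries. The summed FPKM of both genes was 42.1 to 89.4 under LN, against 4.80 to 6.37 in the control. How reads matching more than 1 gene were counted is not stated in the sources used here.

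**Figure D2:**
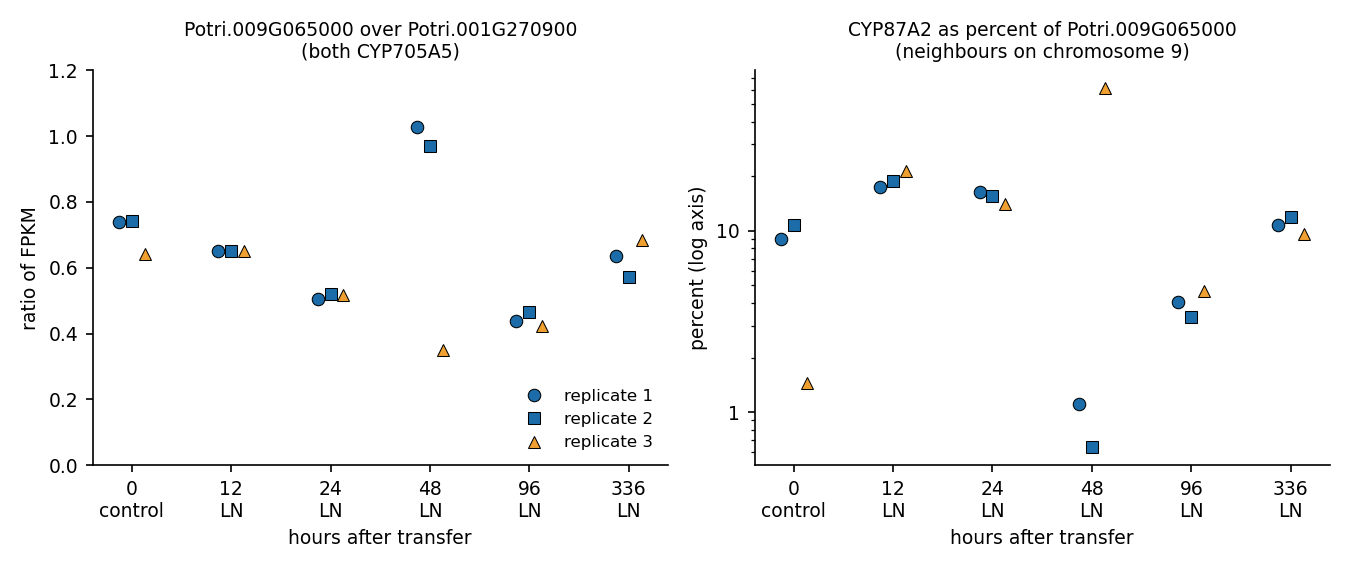
Left, the FPKM of Potri.009G065000 divided by that of Potri.001G270900; right, the FPKM of CYP87A2 as a percent of that of Potri.009G065000 (log axis), with 1 marker per library by hours after transfer. Among the LN groups, replicates agreed closely except at 48 h, where the ratio was near 1 in replicates 1 and 2 and 0.350 in replicate 3, and the percent was 1.11, 0.638 and 61.3.

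CYP87A2 and the CYP705A5 gene next to it on chromosome 9 did not keep a fixed proportion. CYP87A2 had 17.4%, 18.98% and 21.3% of the FPKM of Potri.009G065000 at 12 h, 16.3%, 15.5% and 14.1% after 24 h, 4.06%, 3.34% and 4.68% after 96 h, and 10.8%, 11.9% and 9.65% after 336 h. In the control libraries it had 8.99%, 10.7% and 1.44%, from 5, 7 and 1 fragments. At 48 h the share was 1.11% and 0.638% in replicates 1 and 2 and 61.3% in replicate 3, the lowest and the highest of all libraries.

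Over the 18 libraries, Pearson's r of log2(FPKM + 1) was 0.95 between the 2 CYP705A5 genes and 0.85 between CYP87A2 and CYP81D8. It was 0.46 between CYP87A2 and its neighbour Potri.009G065000. The 3 control libraries lie far below the rest for both CYP705A5 genes. Over the 15 LN libraries alone, r was 0.28 for the 2 CYP705A5 genes, 0.82 for CYP87A2 and CYP81D8, and −0.48 for CYP87A2 and Potri.009G065000. Without replicate 3 at 48 h, over 14 LN libraries, the values were 0.36, 0.87 and −0.34 in the same order. The correlations are a description over libraries that share time points.

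Replicate 3 at 48 h differed from replicates 1 and 2 in opposite directions for the 2 neighbours on chromosome 9. CYP87A2 had 26.7 times the mean of replicates 1 and 2 in replicate 3, whereas Potri.009G065000 had 0.382 times that mean. CYP81D8 had 5.51 times and Potri.001G270900 1.09 times the mean of the other replicates. On the log2(FPKM + 1) scale, 156 of the 22779 genes tested at 48 h differed at least as much as CYP87A2 (0.685%). A difference at least as large as that of Potri.009G065000 was found in 6.13% of them and one as large as that of CYP81D8 in 6.46%.

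**Figure D3:**
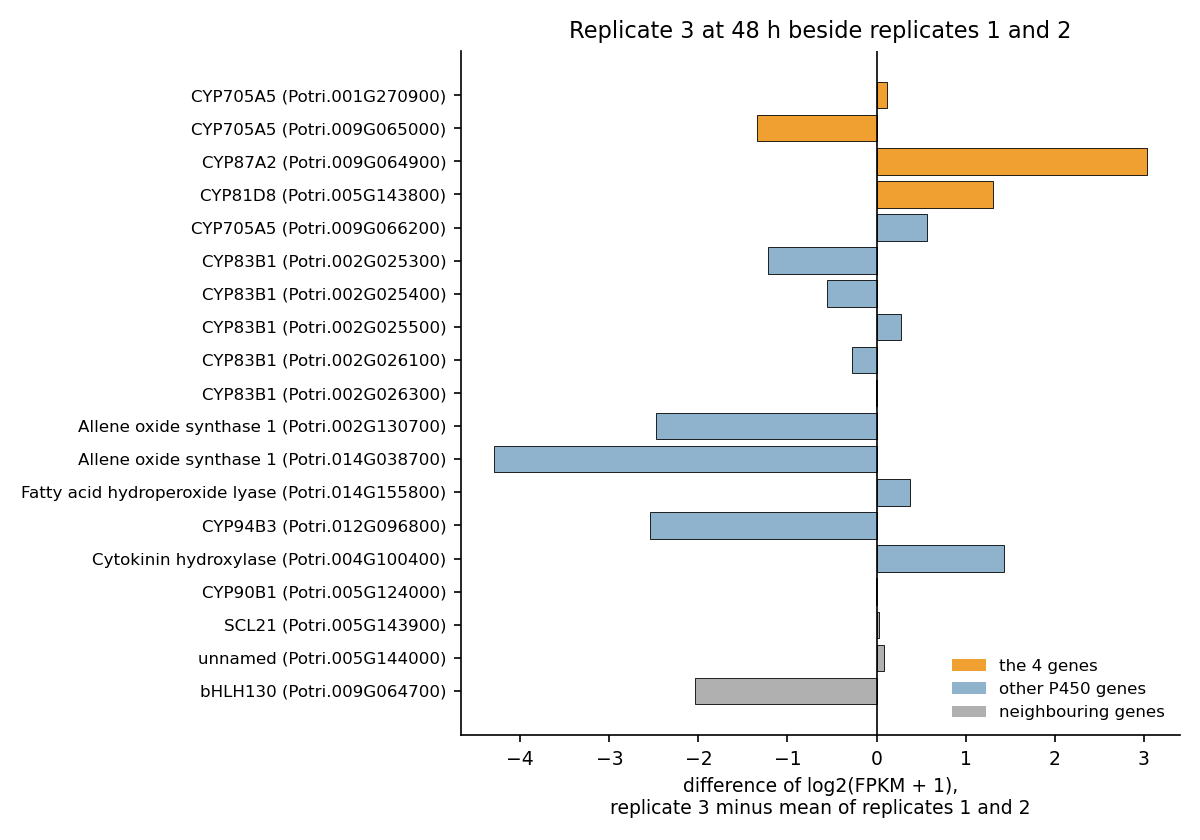
Difference of log2(FPKM + 1) at 48 h, replicate 3 minus the mean of replicates 1 and 2, for the 4 genes, the 12 other described P450 genes and 3 neighbouring genes, with 1 bar per gene from 0. CYP87A2 stands at 3.04 and Potri.009G065000 at −1.34, while the allene oxide synthase gene Potri.014G038700 reaches −4.30.

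The neighbouring genes were taken as the 5 nearest identifiers on each side of Potri.001G270900, of the pair on chromosome 9 and of CYP81D8, 30 genes in all. Of these, 20 passed the filter at 12 h and 6 of the 20 were called. The calls were 6 of 20 after 24 h, 4 of 20 after 48 h, 5 of 21 after 96 h and 6 of 20 after 336 h. Over all genes tested, the called share was 8.83% after 12 h, 5.69% after 24 h, 4.98% after 48 h, 10.0% after 96 h and 12.3% after 336 h. Without replicate 3, 6 of 20 were called at 48 h. Every call was of a higher level under LN, but the share of higher calls over all genes is not given here. With limma-voom on the fragments, 9 neighbours were called higher and 1 lower at 1 or more time points. Over all genes limma-voom also called more, with 3467 against 2030 at 12 h. Its called share over all genes is not given here, so nothing is read from these 2 counts. 1 of the 6 calls at 12 h and at 24 h, that of the gene just before CYP87A2, rests on a gene that passed the filter only through its LN libraries. Without any 1 of those libraries the gene was not tested, and 5 neighbours were called. Another of the called genes, the one just before Potri.001G270900, also needed LN libraries to pass the filter, as described below. Over the time points, 22 neighbours passed the filter at least once and 8 of them were called at 1 or more time points (36.4%, against 20.7% of all genes tested). The median log2 fold change of tested neighbours was 0.53 after 12 h, 0.21 after 24 h, 0.29 after 48 h, 0.40 after 96 h and 0.39 after 336 h. The deposited values give no names, and 2 neighbours are named in the study, SCL21 and bHLH130.

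SCL21 (Potri.005G143900), a gene of the GRAS family of transcription regulators, follows CYP81D8 on chromosome 5. It had 71.1, 67.7 and 69.0 FPKM at 12 h, 52.4, 52.8 and 53.2 FPKM at 24 h, 39.7, 40.5 and 40.8 FPKM at 48 h, 33.5, 32.7 and 34.9 FPKM at 96 h, and 30.1, 18.4 and 25.7 FPKM at 336 h, against 1.97 to 3.45 FPKM in the control. It was highest at 12 h like CYP81D8, but its decline was slower and replicate 3 at 48 h did not stand apart. Its log2 fold change was 4.30 at 12 h (SE 0.13, limma, Benjamini-Hochberg adjusted p = 1.35e-07) and 2.82 at 336 h (SE 0.20, adjusted p = 7.55e-06). The next gene, Potri.005G144000, which has no name in the sources used here, had 261, 246 and 245 FPKM at 12 h and 199, 144 and 208 FPKM at 336 h, against 30.2 to 33.4 FPKM in the control. It was called higher at all 5 time points, with log2 fold changes of 2.47 to 3.03 (limma, adjusted p at most 0.000247), and of 2.85 at 48 h without replicate 3. The gene just before CYP81D8 and the one before that did not pass the filter at any time point.

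On chromosome 9, the gene just before CYP87A2 had 1.84, 1.61 and 1.38 FPKM at 12 h and 1.33, 1.61 and 1.07 FPKM at 24 h, against 0 to 0.0335 FPKM in the control. Since it passed the filter only through these LN libraries, its values are given as a description. At 48 h it had 0.458 and 0.473 FPKM in replicates 1 and 2 and 2.44 FPKM in replicate 3, the same order as CYP87A2. The second gene before CYP87A2, described as the transcription factor bHLH130 (Potri.009G064700), went the other way. It had 41.4 and 42.1 FPKM in replicates 1 and 2 at 48 h and 9.39 FPKM in replicate 3, against 7.82 to 9.11 FPKM in the control, as Potri.009G065000 was also lower in replicate 3. Its log2 fold change at 48 h, 1.47 with an SE of 0.55, was not called (limma, adjusted p = 0.132). Without replicate 3 it was 2.15 with an SE of 0.08 and was called (limma, adjusted p = 2.45e-06). None of the 5 genes after Potri.009G065000 was called at any time point, and 2 of the 5 never passed the filter.

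On chromosome 1, the called genes all stood before Potri.001G270900. The gene just before it had 35.8, 38.5 and 37.6 FPKM at 12 h and 72.5, 61.8 and 69.0 FPKM at 336 h, against 0.916 to 1.28 FPKM in the control. Between these times it had 2.54, 2.61 and 2.71 FPKM at 96 h, and 4.51, 4.28 and 28.6 FPKM in replicates 1, 2 and 3 at 48 h. Its log2 fold change was 4.22 at 12 h and 5.07 at 336 h (limma, adjusted p = 2.06e-08 and 2.34e-08), and the changes of 2.22 at 48 h and 0.82 at 96 h were not called. Its control level lay at the filter limit of 1 FPKM, with 0.916 FPKM in the lowest library. The gene thus needed its LN libraries to pass the filter, which limits what its p-values show. Without replicate 3 the 48 h change was 1.40, from replicates that lay close together, and was called (limma, adjusted p = 2.54e-05). Its low level at 96 h contrasts with Potri.001G270900, whose level was highest at that time. The genes 3 and 4 places before Potri.001G270900 were called higher at all 5 time points, with log2 fold changes of 1.60 to 2.59 and of 1.10 to 2.22 (limma, adjusted p at most 0.00493). None of the 5 genes on the other side was called, and the nearest of them did not pass the filter at any time point.

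**Figure D4:**
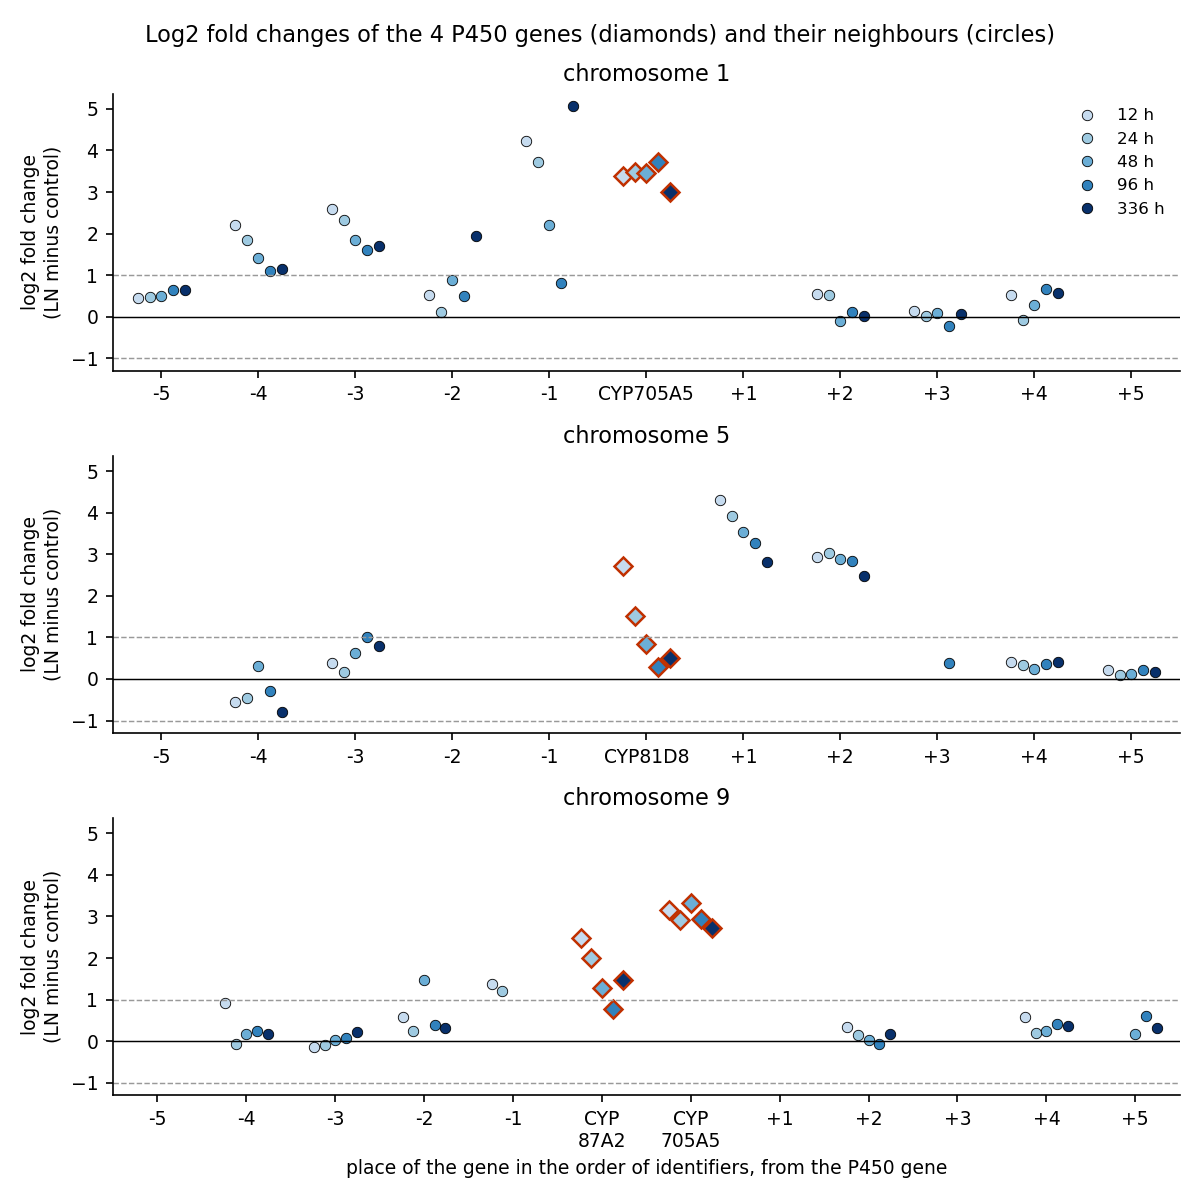
Log2 fold change (LN minus control, on log2(FPKM + 1)) of the 4 P450 genes (diamonds) and of the neighbouring genes that passed the filter (circles), by place in the order of identifiers and coloured by hours after transfer; dashed lines mark 1 and −1. Of the 30 neighbours, the 8 called genes were 4 on chromosome 1, all before the P450 gene, 3 on chromosome 5 and 1 on chromosome 9.

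The study's tables describe 12 other genes with a cytochrome P450 domain, and these tables hold genes that the study called on the same samples, so the list is not independent evidence. Of the 12, 6 passed the filter at each time point. Calls were made for 2 of the 6 at 12, 24 and 96 h, for 1 after 48 h and for 3 after 336 h. Among all genes tested the called share was 8.83% after 12 h, 5.69% after 24 h, 4.98% after 48 h, 10.0% after 96 h and 12.3% after 336 h, and 1 gene of 6 is more than any of these shares. Without replicate 3 at 48 h, 2 were called higher and 1 lower at that time. In all, 2 of the 6 genes were higher and 1 was lower at 1 or more time points (20.7% of all genes tested were called in either direction). With limma-voom, 4 were called higher and 4 lower at 1 or more time points, of 11 tested, and at 12 h 2 were higher and 4 lower of 9 tested. 1 of those called higher, the CYP705A5 gene Potri.009G066200, passed that filter only through its LN libraries. Over all genes, limma-voom called 3467 at 12 h and 4439 at 336 h, against 2030 and 2879 with limma on FPKM. Its called share over all genes is not given here, so nothing is read from these counts. Among the 6 tested with limma on FPKM, the median log2 fold change was −0.06 after 12 h, −0.24 after 24 h, 0.18 after 48 h, 0.62 after 96 h and 0.29 after 336 h. None of the 12 was called higher at all 5 time points with all libraries, and 1, an allene oxide synthase gene, was without replicate 3 at 48 h. That call leaves out a library with 9.81 FPKM and keeps those with 210 and 214 FPKM.

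The third gene described as CYP705A5, Potri.009G066200, on the same chromosome as Potri.009G065000, stayed below the filter of the FPKM fit throughout. It had 0.885, 0.662 and 0.649 FPKM at 12 h and 0.198, 0.244 and 0.288 FPKM at 336 h, against 0 to 0.118 FPKM in the control. Its level at 12 h was thus far below those of the other CYP705A5 genes. With limma-voom it passed the filter at 12, 24 and 96 h only through its LN libraries. The log2 fold changes there, 3.50, 2.92 and 2.63 from a control level near 0, are thus given as a description. Of the 5 genes described as CYP83B1, an enzyme of indole glucosinolate synthesis in Arabidopsis, 2 passed the filter and 1 was called. That gene, Potri.002G025300, had 15.4, 14.2 and 15.6 FPKM at 336 h, against 4.78 to 5.64 FPKM in the control (log2 fold change 1.36, SE 0.08, limma, adjusted p = 2.66e-06).

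Allene oxide synthase makes the first precursor specific to jasmonates. The gene Potri.014G038700 had 45.4, 43.9 and 46.2 FPKM at 12 h, 16.4, 16.6 and 15.6 FPKM at 24 h, 32.4, 34.3 and 35.1 FPKM at 96 h, and 54.8, 48.3 and 60.1 FPKM at 336 h, against 5.77 to 6.63 FPKM in the control. It was called higher at these 4 time points, with log2 fold changes of 1.26 to 2.94 (limma, adjusted p at most 4.15e-06). At 48 h it had 210 and 214 FPKM in replicates 1 and 2 and 9.81 FPKM in replicate 3, and was not called (limma, adjusted p = 0.101). Without replicate 3 its log2 fold change at 48 h was 4.89 and it was called (limma, adjusted p = 2.95e-07). The second allene oxide synthase gene, Potri.002G130700, had 99.1, 98.3 and 16.98 FPKM in replicates 1, 2 and 3 at 48 h, against 16.1 to 19.1 FPKM in the control. Its 48 h change was not called with all 3 libraries and was called without replicate 3 (log2 fold change 2.43, limma, adjusted p = 1.67e-06). CYP94B3, which hydroxylates the active jasmonate conjugate in Arabidopsis, had 5.42, 4.66 and 0.0342 FPKM in these libraries, against 0.0327 to 0.0334 FPKM in the control. At 48 h these 3 genes were thus high in the libraries where Potri.009G065000 was high and where CYP87A2 and CYP81D8 were low. Hydroperoxide lyase (Potri.014G155800), which forms volatile aldehydes from fatty acid hydroperoxides, did not share this order. It had 2.62, 3.09 and 4.00 FPKM in replicates 1, 2 and 3 at 48 h. It was not called at any time point with limma on FPKM, but was called higher at 48 and 96 h with limma-voom.

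The gene Potri.004G100400 is described as a cytokinin hydroxylase, an enzyme that in Arabidopsis turns isopentenyl-type into trans-zeatin-type cytokinins. It was the 1 gene of the 12 called lower with limma on FPKM. It had 4.70, 5.14 and 4.91 FPKM at 12 h and 1.14, 1.99 and 1.58 FPKM at 336 h, against 14.8 to 17.1 FPKM in the control. The 48 h values were 1.65 and 1.75 FPKM in replicates 1 and 2 and 6.27 FPKM in replicate 3. It was lower at all 5 time points, with log2 fold changes of −1.49, −1.34, −2.15, −2.50 and −2.71 (limma, adjusted p at most 0.02). Its 48 h call did not hold when any control replicate, or replicate 1 or 2 of 48 h, was left out, with log2 fold changes of −2.19 to −1.90. Without replicate 3 the change was −2.63 and was called (limma, adjusted p = 1.17e-06). The gene CYP90B1 (Potri.005G124000), a hydroxylase of brassinosteroid synthesis, stayed below the filter. With limma-voom it was called lower at 12, 48 and 336 h (log2 fold changes of −1.01, −1.17 and −1.12), and the CYP83B1 genes Potri.002G025400 and Potri.002G026300 were called lower at 12 h (−1.06 and −1.45).

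**Figure D5:**
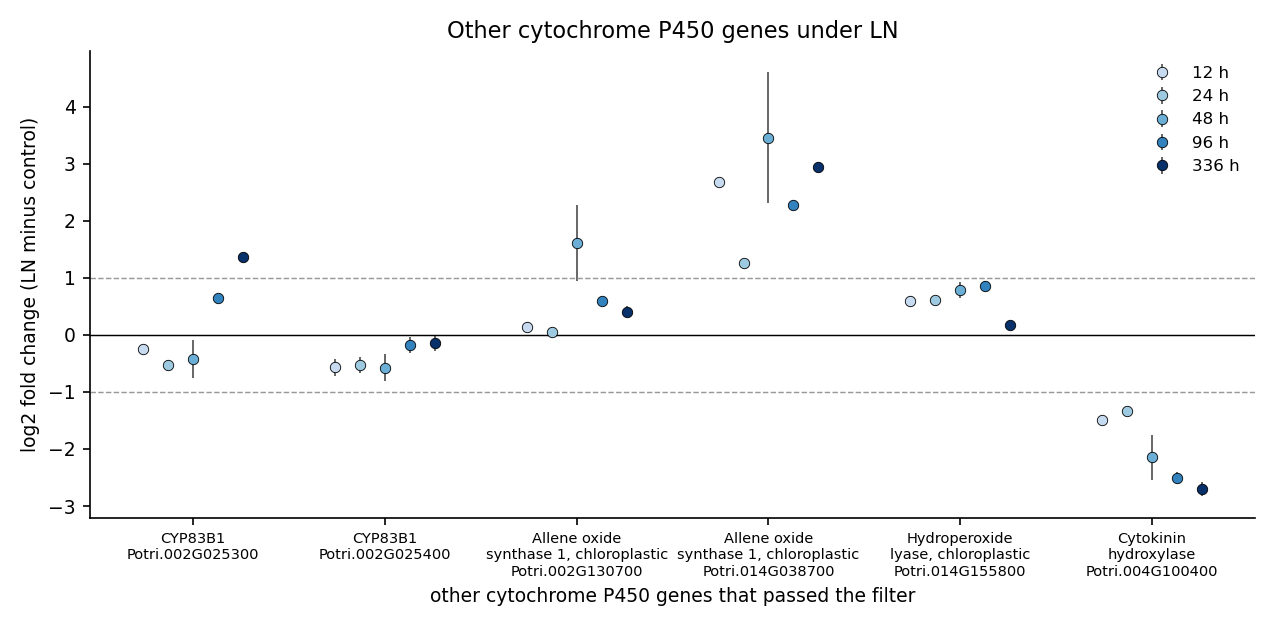
Log2 fold change (LN minus control, on log2(FPKM + 1)) with SE for the 6 other P450 genes that passed the filter, coloured by hours after transfer; dashed lines mark 1 and −1. The cytokinin hydroxylase gene lies below −1 at all 5 time points, and the allene oxide synthase gene Potri.014G038700 above 1, with a wide error at 48 h.

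Genes with the most similar course were sought by Pearson's r of log2(FPKM + 1) over the 18 libraries among the 23296 genes that averaged 1 FPKM or more, the gene itself apart. At r of at least 0.95 there were 12 genes for Potri.001G270900, 11 for Potri.009G065000, 0 for CYP87A2 and 20 for CYP81D8. At r of at least 0.90, CYP87A2 had 35 genes. Because the genes named below were picked by r over these same libraries, a course shared with them follows from the pick.

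The gene most like Potri.001G270900 was Potri.005G144000 (r = 0.99), the gene found 2 places after CYP81D8 on chromosome 5. Among the genes described in the study, the most like were the other CYP705A5 gene, SCL21 (r = 0.95) and the transcription factor JUNGBRUNNEN 1 (Potri.002G057200, r = 0.94), a NAC protein. Spearman's rho over the same libraries was lower for each of them, with 0.66 for Potri.005G144000, 0.39 for the other CYP705A5 gene, 0.50 for SCL21 and −0.01 for JUNGBRUNNEN 1. For Potri.009G065000 the most like gene was Potri.002G187400 (r = 0.99), which has no name in the sources used here. It had 52.5, 50.6 and 21.2 FPKM in replicates 1, 2 and 3 at 48 h. That is the same order as Potri.009G065000, for whose course it was picked. The described genes most like it were the glutathione transferase gene GST23A (Potri.008G174900, r = 0.98), the peroxidase gene PODN1 (Potri.016G125000, r = 0.96) and the other CYP705A5 gene. PODN1 had 154, 160 and 31.9 FPKM in replicates 1, 2 and 3 at 48 h. Without replicate 3, Potri.005G144000 ranked 2nd for Potri.001G270900, and Potri.002G187400 stayed 1st for Potri.009G065000.

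For CYP87A2, the most like gene reached r = 0.94 and lies on chromosome 13. The described genes most like it were IAA26 (Potri.006G236200, r = 0.92), a repressor of the auxin response, a DMR6-LIKE OXYGENASE 2 gene (Potri.004G146100, r = 0.91) and the germin-like protein gene ABP20 (Potri.006G142600, r = 0.90). All 3 were higher in replicate 3 than in replicates 1 and 2 at 48 h, with 5.08, 15.04 and 31.5 FPKM in replicate 3 in this order of genes. They share this with CYP87A2, and r over libraries that include replicate 3 favours such genes, so nothing is read from it. Without replicate 3 at 48 h, the gene on chromosome 13 ranked 18th by r with CYP87A2 (r = 0.95). IAA26 then ranked 98th (0.92), the DMR6-LIKE OXYGENASE 2 gene 105th (0.91) and ABP20 286th (0.87). With all 18 libraries their ranks were 1, 10, 18 and 29, so which genes were named for CYP87A2 depends on that library. For CYP81D8, the most like gene reached r = 0.98 and lies on chromosome 6. The described genes most like it were the ribonuclease gene RNS1 (Potri.008G086700, r = 0.95), a S-sulfocysteine synthase gene (Potri.019G045800, r = 0.94) and a Major allergen Pru ar 1 gene (Potri.008G212500, r = 0.93). Without replicate 3 at 48 h, these genes ranked 4th (the gene on chromosome 6), 5th, 62nd and 75th, against 1st, 19th, 31st and 64th with all libraries. RNS1 had means of 20.3 FPKM at 12 h, 7.72 FPKM at 24 h and 2.58 FPKM at 96 h, against 0.986 FPKM in the control. The early maximum that RNS1 shares with CYP81D8 follows from the pick by r.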

How the data were processed

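The authors sequenced RNA from 18 root libraries and deposited FPKM values for 30485 genes. The sources name Bowtie2 (version 2.2.3) with either TopHat2 or HISAT2 (version 2.1.0) for mapping to the Populus trichocarpa genome, and no counting tool is named in them. Groups were taken from the labels. The study calls the 3 libraries of a group biological replicates. The p-values set the difference between group means against the spread between such libraries, which limma moderates across genes. The 4 genes and all gene lists were chosen with earlier results of these data known.

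Fragments, gene lengths and library totals (median 17401559.5) were recovered from the FPKM values. In simulated data the recovery was right for 99.6% of genes. Each LN group was compared with the control by limma 3.58.1 (R 4.3.3), fitted to log2(FPKM + 1) over the 6 libraries of the comparison, with the filter given above and Benjamini-Hochberg adjustment over all genes tested. In simulated data with 200 genes changed 4-fold, 94.9%, 98.0%, 94.9%, 96.0% and 96.9% of the changed genes tested were called in the comparisons of 12, 24, 48, 96 and finally 336 h, with 0 unchanged genes called. All simulated libraries came from control means with the same spread, and only genes with at least 1 FPKM in the control were changed. The simulation held no discordant replicate, so it does not bear on the 48 h fit or on genes as low in the control as CYP87A2 and CYP81D8. Python 3.11.15 with pandas 2.3.3, numpy 2.4.6, scipy 1.17.1 and matplotlib 3.10.9 made tables and figures. Counting intervals are exact at 95%.

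Named were the 4 genes, 5 neighbouring identifiers on each side, 12 other genes with a P450 domain in the study's tables, and for each of the 4 genes the most like gene and the 3 most like genes that the study describes. Genes without a description were named by identifier for at most 2. Alternatives were a pseudocount of 0.1, quantile normalization, limma-voom on the fragments (at least 10 fragments in at least 3 libraries, scaled by median ratios), a replicate block, no filter, all 18 libraries in 1 fit, each library left out, and Spearman's rho. RT-qPCR values and a genome were not used here.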

Additional observations from a re-analysis of the deposited data

Results flagged for a closer look

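Among the neighbouring and the other P450 genes, 3 had all libraries of some LN groups above and all libraries of other LN groups below every control library, and the differences between these time points were not tested. Among all genes tested, every LN library exceeded every control library in 22.9% at 48 h and in 51.2% at 336 h. The share of all genes that went both ways is not given here, so nothing is read from the count of 3. The CYP83B1 gene Potri.002G025300 was 1.36 above the control at 336 h and −0.54 relative to it at 24 h on the log2(FPKM + 1) scale, a gap of 1.90. The CYP90B1 gene Potri.005G124000, below the filter, stood at 0.33 at 96 h and −0.37 at 48 h, a gap of 0.70. The third gene before CYP87A2 on chromosome 9 stood at 0.22 at 336 h and −0.14 at 12 h, a gap of 0.365, while the median of all tested genes at 336 h was 0.21.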

How the results depend on the processing

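All 193 alternative log2 fold changes of the 4 genes at single time points were positive, and 28 were under 1. The medians over the 5 time points moved beyond the spread between replicates with a pseudocount of 0.1 (3.77 for Potri.001G270900, 3.36 for Potri.009G065000, 3.28 for CYP87A2 and 2.19 for CYP81D8) and, for Potri.001G270900, with limma-voom (3.73). For CYP87A2 and CYP81D8, quantile normalization and limma-voom gave no median, since not every time point passed their filters. Leaving out libraries moved none of these medians beyond that spread, but that of CYP81D8 was 0.51 without replicate 3 of 48 h and 1.11 without replicate 2, against 0.83.

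Calls over all genes numbered 3467, 2292, 3853 and 4439 with limma-voom at 12, 24, 96 and 336 h, against 2030, 1298, 2341 and 2879. With a pseudocount of 0.1 there were 3527 at 96 h. At 48 h there were 1134, against 2077 with all 18 libraries in 1 fit, 572 to 594 without a control library, 603 to 610 without replicate 1 or 2 of 48 h, and 2687 where its replicate 3 was left out. The cause was not tested. Of the other P450 genes, 8 were called at 1 or more time points with limma-voom (4 higher, 4 lower), against 3. Quantile normalization moved the median of all tested genes to between −0.07 and 0.01. The call of the third gene before CYP81D8 at 96 h was lost with it (0.64), and also without control replicate 1 (0.92) or 96 h replicate 2 (0.99). The gene 4 places before Potri.001G270900 fell under the fold limit with limma-voom at 96 and 336 h (0.96 and 0.93). The call of Potri.014G038700 at 24 h was lost with all 18 libraries in 1 fit. By Spearman's rho, Potri.005G144000 ranked 735th and the other CYP705A5 gene 4147th among the genes most like Potri.001G270900, and rho with JUNGBRUNNEN 1 was −0.009.

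Replicate numbers did not pair the libraries, since the correlation of same-numbered deviations from the group means was −0.14 to 0.044. With the replicate block, 903 genes were called at 48 h, and the calls of the neighbouring (8) and other P450 genes (3) at 1 or more time points did not change in number. The precision of CYP87A2 and CYP81D8 is limited by 13 and 10 control fragments.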
